A study of Mus musculus with 29 samples.

Results

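The 10 genes of the MYC and MAX network described here are Myc, Mycn, Max, Mxi1, Mxd1, Mxd3, Mxd4, Mnt, Mlx and Mga, out of 21938 protein-coding genes of the mouse annotation GENCODE vM21. Each gene was given a window of its body plus 50 kb on either side on mm10, and every ChIP-seq peak sharing at least 1 bp with a window was taken. The peaks came from 28 lists of 24 constructs, in which transcription factors carrying a C-terminal HA tag were produced in NIH-3T3 cells, an established mouse fibroblast line. Of the 304922 peaks in all lists, 314 (0.103%) fell in the 10 windows. A peak was called a promoter peak when it overlapped the region 1 kb either side of the gene start, the 5′ end of the gene record.

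The wild-type constructs were BHLHB8-HA, BRACHYURY-HA, CDX2-HA, DLX1-HA, DLX6-HA, DUXBL-HA, EBF1-HA, FOXA1-HA, HLF-HA, MAX-HA, NANOG-HA, OCT4-HA, PRR3-HA, RHOX11-HA, SIX6-HA, SOX15-HA, SOX2-HA, TEAD1-HA, THAP4-HA, TOX3-HA and ZFP319-HA. The others were the FOXA1 mutants FOXA1_RR-HA and FOXA1_SW-HA, and OCT4-HA made alongside SOX2 that carried the YPet fluorophore, written SOX2-YPET OCT4-HA. All cells carried a lentiviral transgene and the doxycycline-responsive activator rtTA3G, received 500 ng/ml doxycycline overnight, and were fixed with 1% formaldehyde before precipitation with an anti-HA antibody. The lists therefore show where an introduced, tagged protein was recovered, and the endogenous proteins were not measured. SOX2-HA, OCT4-HA, FOXA1-HA and BHLHB8-HA had 2 lists each, from separate biological replicates, and the other 20 constructs had 1 list and no replicate error. Lists ran from 52 to 61991 peaks and hold positions only, so the sequencing depth is unknown, no test between constructs was run, and the fibroblast label could not be checked against marker genes.

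MYC and MYCN are basic helix-loop-helix leucine zipper proteins that bind DNA as dimers with MAX, at the palindromic E-box CACGTG, and drive genes of growth and metabolism. MXD1, MXI1, MXD3, MXD4 and MNT compete for MAX and recruit SIN3 repressor complexes, MGA joins MAX to a Polycomb-type repressor, and MLX is a MAX-like partner of MNT, MXD1, MXD4 and the glucose-sensing MLXIP proteins. TEAD1 is the DNA-binding partner of the Hippo pathway coactivators YAP and TAZ and recognises CATTCC.

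The MAX-HA peak at the start of Max itself and the E-boxes near other network genes carry the main comparison of factor and sequence, and are printed here before the counts. Capitals mark CACGTG, which reads the same on both strands. The Max line is the strand of the gene from the upstream E-box to the one nearest the start, chr12:76962246-76962530 on the minus strand, 285 bases within the MAX-HA peak. The Mxd4 line (chr5:34187864-34187960, minus strand), the Mnt line (chr11:74830741-74830866, plus strand) and the Mlx promoter line (chr11:101087190-101087292, plus strand) are from RefSeq promoters of GRCm38.p6, each with its E-box. The other lines are the central 80 bases of the MAX-HA peaks in the windows of Mxi1 (chr19:53389750-53389829) and Mlx (chr11:101118302-101118381), on the plus strand, shown because they lack the E-box.
Max: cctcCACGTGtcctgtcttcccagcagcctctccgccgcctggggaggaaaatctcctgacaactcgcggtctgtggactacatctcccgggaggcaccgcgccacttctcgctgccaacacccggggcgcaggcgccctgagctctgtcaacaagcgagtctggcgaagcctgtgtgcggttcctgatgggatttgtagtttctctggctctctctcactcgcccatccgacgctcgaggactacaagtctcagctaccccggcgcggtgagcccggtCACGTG
Mxd4: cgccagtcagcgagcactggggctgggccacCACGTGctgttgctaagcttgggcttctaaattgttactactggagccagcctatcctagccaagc
Mnt: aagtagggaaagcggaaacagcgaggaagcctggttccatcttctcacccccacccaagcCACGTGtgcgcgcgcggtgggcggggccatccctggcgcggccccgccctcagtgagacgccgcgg
Mlx promoter: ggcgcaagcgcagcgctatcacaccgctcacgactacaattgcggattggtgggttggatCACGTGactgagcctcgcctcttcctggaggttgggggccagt
Mxi1 MAX-HA peak centre: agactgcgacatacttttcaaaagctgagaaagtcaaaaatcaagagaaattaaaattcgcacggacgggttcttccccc
Mlx MAX-HA peak centre: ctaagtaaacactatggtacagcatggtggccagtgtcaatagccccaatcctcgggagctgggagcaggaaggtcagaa

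Before the genes are described, the MAX-HA and TEAD1-HA lists themselves need a measurement. CACGTG was present in 4.3% of the 3836 MAX-HA peaks, against 11.6% of the 14959 TEAD1-HA peaks, the highest share of the 28 lists. CATTCC was present in 10.2% of TEAD1-HA peaks, the lowest share of the 28 lists, and in 19.3% of MAX-HA peaks. The mean GC content was 57.8% in TEAD1-HA peaks and 43.8% in MAX-HA peaks, and its part in these shares was not tested. A BHLHB8-HA peak of replicate 1 overlapped 55.7% of MAX-HA peaks, and one of replicate 2, the longer list, 34.6%. MAX-HA peaks also overlapped SOX2-HA replicate 1 in 54.8% and replicate 2 in 22.4%, FOXA1-HA replicate 1 in 53.6% and replicate 2 in 17.3%, DLX6-HA in 51.3% and TEAD1-HA in 1.75%. For CACGTG, 13 of the other 27 lists had a higher share than MAX-HA. The raw shares of CACGTG and CATTCC in the TEAD1-HA list thus went against its label, and those of the MAX-HA list did not single it out. The paper states that TEAD1, like DLX1, DLX6, HLF and SIX6, had no enriched published motif. For these factors it took motifs annotated in the JASPAR database. Whether a label or library was exchanged cannot be told from the lists, so MAX-HA and TEAD1-HA stand below for the libraries labelled so, and each comparison of them depends on those labels.

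MAX-HA had a peak in the window of 3 of the 10 network genes, Max, Mxi1 and Mlx, where 23% of all protein-coding genes had one. It had a promoter peak at 1 gene, Max, where 1.86% of all protein-coding genes had one. Its 3 peaks gave 2.43 peaks per Mb in the network windows and 1.89 per Mb over all gene windows. MAX-HA thus had no peak in the windows of Myc, Mycn, Mxd1, Mxd3, Mxd4, Mnt or Mga. Because the list is short and unreplicated, a missing peak says only that none was listed there.

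**Figure D1:**
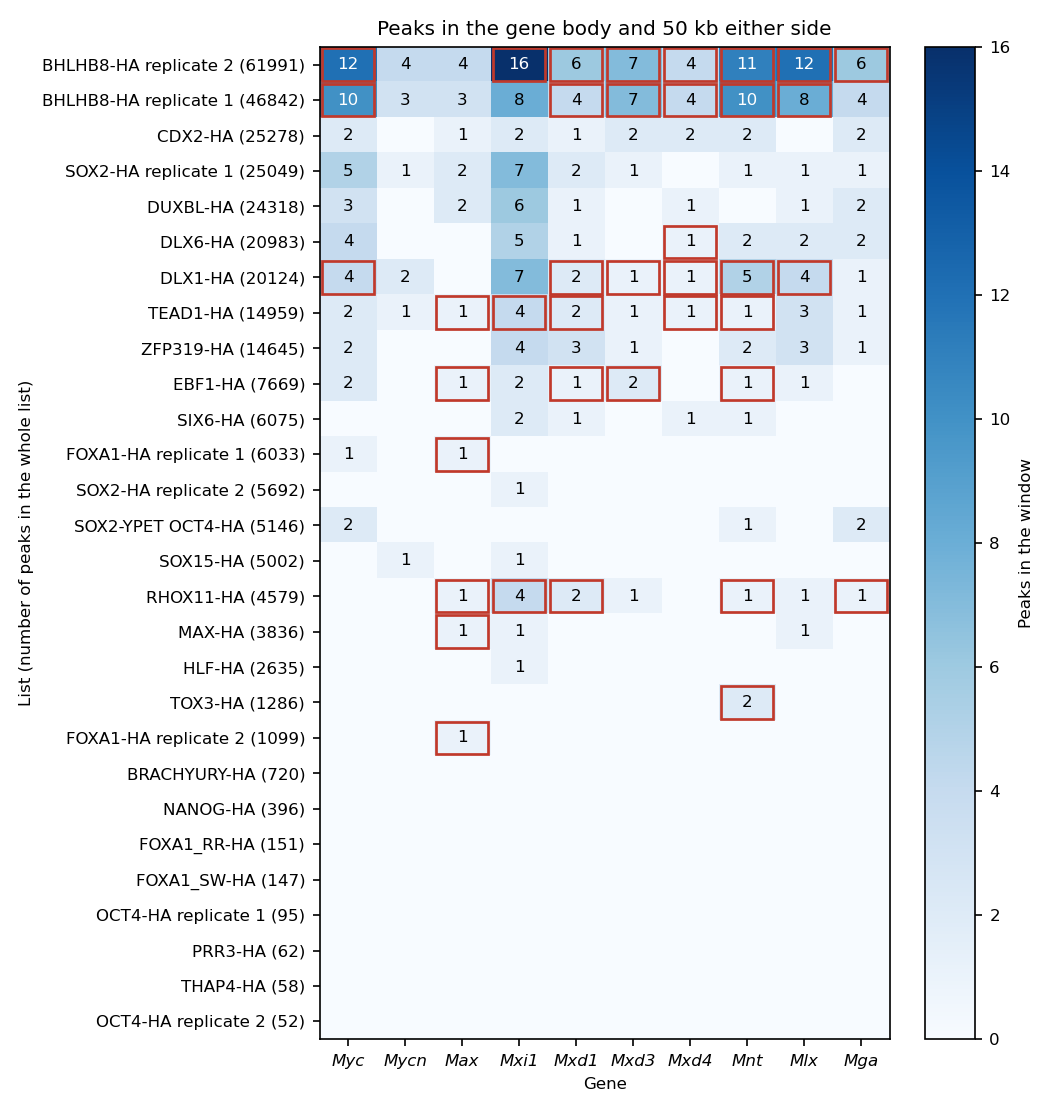
Number of peaks in the window of each network gene (columns) in each of the 28 lists (rows, ordered by the number of peaks in the whole list, given in brackets). Numbers and shading give peaks per window, empty cells stand for 0, and a red frame marks a promoter peak; MAX-HA has 3 filled cells and TEAD1-HA has 10.

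The MAX-HA peak at Max, the gene of the obligate partner, ran from 76962191 to 76962530 on chromosome 12, a width of 340 bp. Max lies on the minus strand of chromosome 12 (76937269 to 76962201), so the peak covered the start and the sequence upstream, with its midpoint at -160 bp. It touched the first bases of a noncoding exon part and no coding sequence. Of the 2 E-boxes within 1 kb of the Max start, at -47 and -322 bp, both lay inside this peak, 112 and 163 bp from its centre. The E-boxes therefore flanked the middle of the peak and were outside its central 200 bp.

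MAX-HA was not alone at the Max start. FOXA1-HA replicate 1 had a peak from 76962194 to 76962531, whose ends lay within a few bases of those of the MAX-HA peak. FOXA1-HA replicate 2 had a narrower one from 76962241 to 76962495, RHOX11-HA had one from 76962252 to 76962498, and EBF1-HA had one from 76962437 to 76962809. The E-box at -47 bp was covered by MAX-HA and both FOXA1-HA lists, and the one at -322 bp by MAX-HA, EBF1-HA and FOXA1-HA replicate 1. Neither was covered by BHLHB8-HA, the bHLH factor with the longest lists, nor by TEAD1-HA. The TEAD1-HA peak at Max was a separate one, from 76961708 to 76962016, centred 339 bp inside the gene over a coding exon.

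Over the genome, MAX-HA promoter peaks were found with those of several constructs. Of the 407 protein-coding genes with a MAX-HA promoter peak, 135 (33.2%) also had one of FOXA1-HA replicate 1 and 36 (8.85%) one of replicate 2, against 1.29% and 0.273% of all protein-coding genes. Both FOXA1-HA lists had one at 30 (7.37%). TEAD1-HA had a promoter peak at 196 (48.2%), against 29.6% of all protein-coding genes, although few MAX-HA and TEAD1-HA peaks overlapped each other. All of MAX-HA, both FOXA1-HA lists, EBF1-HA and RHOX11-HA were present at 5 promoters (0.0228% of all protein-coding genes). These were the promoters of Max, Trib1, Med22, Rpl7a and 4931408C20Rik. Med22 and Rpl7a start at 26910677 and 26910764 on chromosome 2, so their promoter regions nearly coincide and are not separate positions. Promoters shared with constructs not named here were not counted. By peaks, MAX-HA overlapped BHLHB8-HA replicate 1 (55.7%), SOX2-HA replicate 1 (54.8%) and DLX6-HA (51.3%) about as often as FOXA1-HA replicate 1 (53.6%). The FOXA1-HA replicate 1 list reached that share with 6033 peaks. The others were much longer, with 46842 peaks in BHLHB8-HA replicate 1, 25049 in SOX2-HA replicate 1 and 20983 in DLX6-HA. The cause of the shared MAX-HA and FOXA1-HA positions was not tested.

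The other MAX-HA peaks lay far from the starts of the network genes. The peak in the Mxi1 window (chr19:53389670-53389910, 241 bp) was 79272 bp downstream of the Mxi1 start and 788 bp from that of Smndc1, its nearest gene. The peak in the Mlx window (chr11:101118218-101118466, 249 bp) was 31065 bp downstream of the Mlx start and 1551 bp from that of Retreg3. Neither held a CACGTG, and no other construct had a peak touching either of them, although a TEAD1-HA peak began at 53389952, just past the end of the first. Counting only peaks whose nearest coding gene start was that of the network gene, MAX-HA was left with Max.

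TEAD1-HA differed from MAX-HA in reach. It had at least 1 peak in the windows of all 10 network genes, where 68.8% of all protein-coding genes had one, with 17 peaks or 13.8 per Mb against 7.61 per Mb over all gene windows. It had a promoter peak at 5 genes, Max, Mxi1, Mxd1, Mxd4 and Mnt, where 29.6% of all protein-coding genes had one. Among genes with promoter GC content in the range of the 10 network genes, 43.5% had one, close to 5 of 10. The 5 genes encode MAX and 4 of its repressor partners. Mxd3 and Mga, which also encode repressor partners, were not among them. Myc, Mycn, Mxd3, Mlx and Mga had TEAD1-HA peaks in the window but not at the start.

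The TEAD1-HA promoter peaks lay close to the starts. Their midpoints were at -87 bp at Mnt (chr11:74830692-74830973), 128 bp at Mxd1 (chr6:86668753-86669312), 195 bp at Mxi1 (chr19:53310554-53310872), 293 bp at Mxd4 (chr5:34187083-34187770) and 339 bp at Max. Those at Max, Mxi1, Mxd1 and Mxd4 overlapped a coding exon, and the one at Mnt ended in a noncoding part of the first exon. At Mnt, which encodes a widely expressed MAX-dependent repressor, the E-box at -117 bp lay 29 bp from the centre of the TEAD1-HA peak.

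Away from these starts, TEAD1-HA peaks often lay near the start of a neighbouring gene. In the Mxi1 window a peak was 333 bp from the Smndc1 start, in the Mxd3 window 1 was 86 bp from Rab24, and in the Mlx window 1 was 307 bp from Naglu and another 173 bp from Retreg3. In all, 10 of the 17 midpoints (58.8%) lay within 1 kb of some coding gene start, against 39.1% of the whole TEAD1-HA list. For MAX-HA it was 2 of 3 (66.7%), against 8.52% of the whole list. The whole lists also hold peaks outside all gene windows, so their shares are not a like background for peaks chosen near genes. The TEAD1-HA peaks of Myc were 42661 and 52557 bp downstream of its start, that of Mycn 37036 bp downstream, and that of Mga 24224 bp upstream. For these genes no TEAD1-HA peak came within 20 kb of the start.

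**Figure D2:**
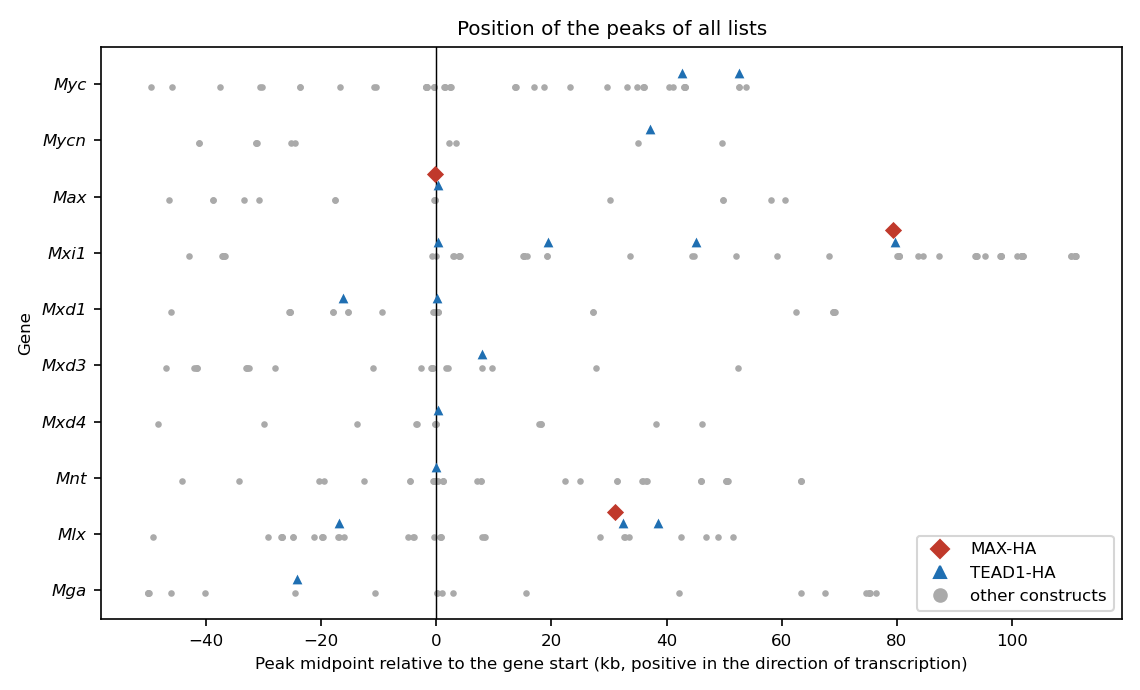
Position of every peak in the 10 windows, as the distance of its midpoint from the gene start in kb (x axis, positive in the direction of transcription), with 1 row per gene. Red diamonds are MAX-HA, blue triangles TEAD1-HA and grey dots the other constructs; the only MAX-HA diamond at a start is that of Max, and TEAD1-HA triangles stand at the starts of Max, Mxi1, Mxd1, Mxd4 and Mnt.

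The share of peaks at the start of their network gene separated the constructs only loosely, given the few peaks. It was 1 of 3 in MAX-HA (33.3%, 95% exact interval 0.84 to 90.6%) and 5 of 17 in TEAD1-HA (29.4%, 10.3 to 56%), where the same shares over all gene windows were 6.06% and 20%. RHOX11-HA had 5 of 11 (45.5%, 16.7 to 76.6%, all gene windows 21.2%), EBF1-HA 4 of 10 (40%, 12.2 to 73.8%, 6.99%) and DLX1-HA 7 of 27 (25.9%, 11.1 to 46.3%, 7.2%). SOX2-HA had 0 of 22 (upper bound 15.4%, all gene windows 2.31%), CDX2-HA 0 of 14 (23.2%, 1.21%), DUXBL-HA 0 of 16 (20.6%, 2.59%) and ZFP319-HA 0 of 16 (20.6%, 4.57%). At the shares over all gene windows, each of these 4 constructs would have had fewer than 1 peak at a start. The intervals are Clopper-Pearson intervals and cover counting error over peaks only. Peaks of duplicate lists were counted separately here, so SOX2-HA has 22 peaks where merging its lists leaves 21. The intervals of MAX-HA and TEAD1-HA overlapped each other and those of the other constructs named here.

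Among the other constructs, BHLHB8-HA (a bHLH factor also known as MIST1) reached all 10 windows and 8 promoters, where 86% and 43.8% of all protein-coding genes were reached. Its lists agreed on the windows but not on every promoter: replicate 1 had 10 windows and 6 promoters (all genes 77.2% and 30.4%), and replicate 2 had 10 and 8 (84.4% and 40.6%). The homeodomain factor DLX1-HA had 9 windows and 6 promoters (60.5% and 11.7%), and RHOX11-HA, another homeodomain factor, had 7 and 5 (34.3% and 10.5%). EBF1-HA, a factor of B cell development, had 7 windows and 4 promoters (38.8% and 5.38%). For these 3 lists the share of network genes with a promoter peak was further above that of all genes than for TEAD1-HA.

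Other constructs were present in the windows but seldom at the starts, as they were over all genes. SOX2-HA reached 9 windows (57.8% of all genes), nearly all through replicate 1, which reached 9 (57.3%) where replicate 2 reached 1 (25.6%). CDX2-HA reached 8 (56.4%), and DLX6-HA, DUXBL-HA and ZFP319-HA 7 each (53.1%, 64.2% and 59.4%). SIX6-HA reached 4 (27.8%), SOX2-YPET OCT4-HA 3 (15.9%), FOXA1-HA and SOX15-HA 2 each (28.2% and 22%), and HLF-HA and TOX3-HA 1 each (15.6% and 10.1%). Of these, DLX6-HA (7.14% of all genes), FOXA1-HA (1.39%) and TOX3-HA (2.04%) had a promoter peak at 1 gene, namely Mxd4, Max and Mnt. No network gene had a promoter peak of SOX2-HA (4.11% of all genes, 4.05% in replicate 1 and 0.62% in replicate 2), CDX2-HA (1.9%), DUXBL-HA (3.6%), ZFP319-HA (5.83%), SIX6-HA (2.22%), SOX2-YPET OCT4-HA (1.03%), HLF-HA (1.01%) or SOX15-HA (0.588%).

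BRACHYURY-HA, NANOG-HA, PRR3-HA, THAP4-HA, FOXA1_RR-HA, FOXA1_SW-HA and both OCT4-HA lists, all lists of 720 peaks or fewer, had none in any window. The shares of all genes with a window peak were 3.92% for BRACHYURY-HA, 1.82% for NANOG-HA, 0.451% for PRR3-HA, 0.447% for THAP4-HA, 0.921% for FOXA1_RR-HA, 0.884% for FOXA1_SW-HA and 0.766% for OCT4-HA, so that few windows of any kind were reached.

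**Figure D3:**
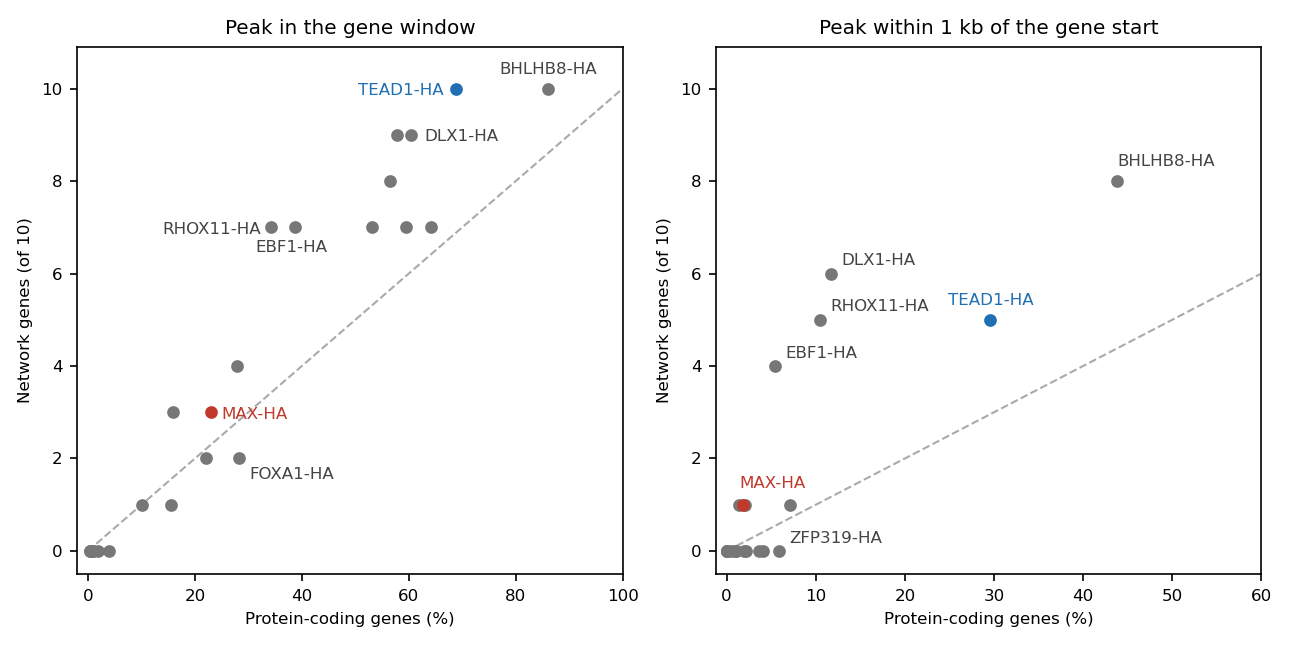
Number of network genes with a peak (y axis, of 10) against the share of all protein-coding genes with a peak (x axis, %), in the window (left) and within 1 kb of the start (right). Each dot is 1 construct with duplicate lists merged, and the dashed line marks equal shares; TEAD1-HA (blue) stands at 10 and 5 genes and MAX-HA (red) at 3 and 1.

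Counted as pairs of gene and construct, 97 of 240 pairs had a window peak, where 10 genes at the average of all protein-coding genes would have 73.1. For promoter peaks there were 32 pairs, and the average of all genes scaled to 10 genes, not matched for GC content, was 13.4. The window lengths of the network genes (median 114.3 kb) were like those of all genes (117.4 kb). The promoters of the 10 genes had 49.2 to 62.8% GC, and the 12289 genes in that range had promoter peaks of TEAD1-HA in 43.5% of cases and of BHLHB8-HA in 57.1%. Against genes of like GC content, TEAD1-HA at 5 of 10 was thus close to the background. In the same genes the background was 15.6% for DLX1-HA, 13.8% for RHOX11-HA and 7.68% for EBF1-HA, which had 6, 5 and 4 of the 10. It was 8.45% for DLX6-HA, 2.75% for TOX3-HA, 2.24% for MAX-HA and 1.59% for FOXA1-HA, with 1 of the 10 each. All of these backgrounds were above those of all genes, so 13.4 pairs is too low for promoters of this GC content.

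The genes differed among themselves in how many constructs had a peak in the window. The median protein-coding gene had 7 of the 24 constructs in its window. Mxi1 had 14, Mnt 12, Myc and Mxd1 11, Mlx and Mga 10, Max 9, Mxd3 8, Mxd4 7 and Mycn 5. By promoters the order changed: Mnt had 6 constructs, Max and Mxd1 5, Mxd4 4, Mxi1 and Mxd3 3, Myc, Mlx and Mga 2, and Mycn 0. No replicate error attaches to either order, and neighbours in them often differ by single constructs. The window order is not one of constructs nearest to each gene. Windows ran from 104.7 to 172.4 kb, and 165 of the 314 peaks (52.5%) had the network gene as nearest start. In the Mxi1 window the MAX-HA, CDX2-HA, EBF1-HA and SIX6-HA sites were nearest to Smndc1, whereas all sites in the Myc window were nearest to Myc.

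Among the activators, Myc (chr15:61985391-61990374, plus strand) held 49 peaks, of which 22 were BHLHB8-HA, with 10 in replicate 1 and 12 in replicate 2. SOX2-HA replicate 1 had 5, DLX1-HA and DLX6-HA 4 each, DUXBL-HA 3, CDX2-HA, TEAD1-HA, EBF1-HA, ZFP319-HA and SOX2-YPET OCT4-HA 2 each, and FOXA1-HA replicate 1 had 1. Only BHLHB8-HA and DLX1-HA were at the promoter, with peaks of both BHLHB8-HA lists and DLX1-HA centred 362 to 399 bp upstream. Just beyond, at chr15:61983474-61983942 (midpoint -1683 bp), peaks of BHLHB8-HA, CDX2-HA, DLX1-HA, DLX6-HA, EBF1-HA and SOX2-HA touched. A second site of 6 constructs, chr15:62027917-62028836, lay 42986 bp downstream and included TEAD1-HA and FOXA1-HA.

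Mycn, the MYC paralogue of neural and embryonic tissue (chr12:12936093-12941914, minus strand), was the sparsest, with 12 peaks. BHLHB8-HA had 3 in replicate 1 and 4 in replicate 2, DLX1-HA had 2, and SOX2-HA replicate 1, SOX15-HA and TEAD1-HA had 1 each. None lay within 1 kb of its start. Its most shared site (chr12:12972893-12973602), 31334 bp upstream, held BHLHB8-HA and DLX1-HA. In every list with a peak near Mycn, Myc had more peaks, apart from SOX15-HA.

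Max itself had 18 peaks, of which 7 were BHLHB8-HA, all outside the promoter. Its promoter constructs, MAX-HA, FOXA1-HA, RHOX11-HA, EBF1-HA and TEAD1-HA, were a set that no other network gene shared in full, and it was the only network gene with a FOXA1-HA promoter peak. BHLHB8-HA, present at 8 of the 10 promoters, was missing from those of Max and Mycn.

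Of the MXD repressors, Mxi1 (chr19:53310518-53375810, plus strand), a longer gene, held 71 peaks, the most of the 10. Its promoter had TEAD1-HA, RHOX11-HA (midpoint -48 bp) and BHLHB8-HA replicate 2 (-731 bp). Several of its shared sites lay beyond the 3′ end near Smndc1, among them chr19:53411626-53412627, 101609 bp downstream of the Mxi1 start, with 7 constructs: BHLHB8-HA, DLX1-HA, DLX6-HA, SIX6-HA, SOX15-HA, SOX2-HA and ZFP319-HA. That was the most crowded site in the 10 windows. Of the 8 sites with 5 or more constructs, 5 were in the Mxi1 window and 4 of these were nearest to Smndc1.

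Mxd1, induced in differentiating cells (chr6:86647042-86669161, minus strand), had 26 peaks, and its promoter held BHLHB8-HA, DLX1-HA, EBF1-HA, RHOX11-HA and TEAD1-HA. The TEAD1-HA peak overlapped those of BHLHB8-HA and DLX1-HA inside the gene, while EBF1-HA (-442 bp) and RHOX11-HA (-293 bp) sat upstream. Mxd3 (chr13:55325168-55329823, minus strand), known from proliferating cells, had 23 peaks, with BHLHB8-HA, DLX1-HA and EBF1-HA touching at chr13:55330199-55330869 (midpoint -711 bp). Mxd4 (chr5:34173883-34187720, minus strand) had 15 peaks, and at its start BHLHB8-HA, DLX1-HA, DLX6-HA and TEAD1-HA formed 1 site of 1238 bp. Of the 4 MXD promoters, all carried BHLHB8-HA (43.8% of all genes, 57.1% of genes of like GC content), although that of Mxi1 did so in replicate 2 only. DLX1-HA was at 3 of the 4 (11.7%, 15.6%) and TEAD1-HA at 3 of the 4 (29.6%, 43.5%).

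Mnt (chr11:74830920-74845725, plus strand) had 40 peaks and the busiest promoter. BHLHB8-HA, DLX1-HA, EBF1-HA, RHOX11-HA and TEAD1-HA joined into 1 site of 1123 bp over its start (chr11:74830216-74831338), and TOX3-HA had a peak at 1152 bp that reached the promoter with its edge. Both BHLHB8-HA lists had a pair of peaks here, 1 upstream and 1 just after the start, and the upstream peaks were almost the same in both (midpoints -501 and -507 bp). The TEAD1-HA peak lay between them and overlapped the downstream one in both lists.

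The remaining partners were sparser at the start. Mlx (chr11:101087277-101092207, plus strand) had 37 peaks, 20 of them BHLHB8-HA, and its promoter held BHLHB8-HA (735 and 740 bp) and DLX1-HA (-377 and 576 bp). Mga (chr2:119897228-119969581, plus strand) had 23 peaks, and its promoter held RHOX11-HA (130 bp) and BHLHB8-HA replicate 2 (137 bp). Their most shared sites had 3 constructs each and lay far upstream, nearest to Naglu and Tyro3.

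Over the 10 windows the peaks of all constructs formed 160 sites, of which 103 (64.4%) belonged to 1 construct, against 76.3% of 168506 sites over the genome. Sites of 5 or more constructs were 8 (5%, genome 5.6%), and no site had 10 or more (genome 0.431%). TEAD1-HA had no other construct at 4 of its 17 sites (23.5%), against 67.1% of its sites over the genome. BHLHB8-HA, present at many of the shared TEAD1-HA sites, had 81.9 peaks per Mb in these windows and 41.3 over all gene windows, with its lists merged. The part of this density in the TEAD1-HA share was not tested. MAX-HA was alone at 2 of 3 (66.7%) against 19.4%, too few sites for a contrast. Of these 2, the one in the Mxi1 window ended just before a site of 6 constructs. BHLHB8-HA gave 143 of the 314 peaks (45.5%) and 35.7% of all peaks.

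E-boxes were far more numerous than covered E-boxes. The 10 windows held 194 CACGTG, of which 17 (8.76%) lay wholly inside a peak of any list, against 4.75% of 193048 in all gene windows. MAX-HA covered 2, both inside its single peak at Max, or 1.03% against 0.0782% over all gene windows. FOXA1-HA replicate 1 covered the same 2 (1.03% against 0.113%), and FOXA1-HA replicate 2 covered 1 of them (0.515% against 0.0212%). TEAD1-HA covered 4 (2.06% against 0.956%), BHLHB8-HA replicate 1 covered 4 (2.06%, 1.45%) and replicate 2 covered 8 (4.12%, 2.36%). Myc with 7 E-boxes and Mycn with 12 had none covered, while Mga had 4 of 22, Mlx 3 of 14 and Mxi1 2 of 40.

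Within 1 kb of the starts there were 8 E-boxes, in 5 of the 10 genes, and 5 of them were covered. The one printed for Mxd4, at -206 bp, was covered by both BHLHB8-HA lists, DLX1-HA and DLX6-HA. The one printed for Mnt, at -117 bp, was covered by RHOX11-HA and TEAD1-HA. The one printed for Mlx, at -25 bp, was covered by none, and MAX-HA covered none of these 3. Neither the presence nor the coverage of E-boxes within 1 kb of the starts was counted over all coding genes. The 4.75% over whole gene windows is therefore no background for the 5 of 8. In RefSeq promoters, which run from 250 bases before to 50 after each start, 9 of the 10 genes had entries, 11 in all. Of these 11 entries 4 held CACGTG, those of Max, Mxd4, Mnt and Mlx, against 7.15% of all 32851 entries.

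By peaks, CACGTG was in 1 of 3 MAX-HA peaks, in 3 of 17 TEAD1-HA peaks (17.6%, whole list 11.6%) and in 32 of all 314 (10.2%, all lists 5.53%). For BHLHB8-HA the E-box CAGCTG was far commoner than CACGTG, at 32 of 61 peaks in replicate 1 (52.5%, whole list 49.7%) and 38 of 82 in replicate 2 (46.3%, 54.4%). That order was not particular to BHLHB8-HA, because CAGCTG was commoner than CACGTG in each of the whole lists. CAGCTG was in 34.4% of all 314 peaks and in 31.5% of the peaks of all lists. CATTCC or its reverse complement was in 3 of 17 TEAD1-HA peaks (17.6%, whole list 10.2%) and in none of the 3 MAX-HA peaks. A match is a description of letters and not a bound site.

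The duplicate lists give the only replicate error. In the 10 windows, 42 of 61 BHLHB8-HA replicate 1 peaks overlapped replicate 2 (68.9%, interval 55.7 to 80.1%, whole list 53.3%), and 41 of 82 the other way (50%, 38.7 to 61.3%, 39.2%). SOX2-HA replicate 1 had 21 peaks and replicate 2 had 1, which overlapped. FOXA1-HA replicate 1 had 2 peaks, at Myc and Max (27.5% of all genes had a window peak), and replicate 2 had the one at Max (6.66%). The Max promoter was thus the network position that both FOXA1-HA lists held.

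The sets of constructs in the windows were compared by the Jaccard index, the number of shared constructs divided by the number in either gene. The most alike pair was Mxi1 and Mxd1 (0.786), then Mxd1 and Mnt (0.769), and the least alike was Mycn and Max (0.273). Over all other protein-coding genes more than 1 Mb away, Nlrc4 (0.9), Tex50 (0.889) and Acsf2 (0.818) were most like Max, and 14 genes reached the last of these values. For Myc, 7 genes had exactly its 11 constructs, with Chuk, Dnttip2 and Erlin1 first by name. Frequent constructs are shared by many genes, so the values describe these lists and nothing more.

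The wider network was counted for promoter peaks in 3 lists of genes. Among 7 related factors (Mycl, Bmyc, Mlxip, Mlxipl, Tfap4, Usf1 and Usf2), TEAD1-HA was at all 7 promoters, BHLHB8-HA at 4, DLX1-HA at 3, RHOX11-HA at 2, EBF1-HA at 1 and MAX-HA at 0. Among 22 cofactors and turnover factors of MYC and MXD proteins, such as Trrap, Sin3a and Fbxw7, TEAD1-HA was at 13 (59.1%), BHLHB8-HA at 17 (77.3%), DLX1-HA and RHOX11-HA at 5 each (22.7%), EBF1-HA at 1 and MAX-HA at 0. Among 26 textbook MYC targets, BHLHB8-HA was at 21 (80.8%), TEAD1-HA at 9 (34.6%), DLX1-HA at 8 (30.8%), RHOX11-HA at 6 (23.1%), EBF1-HA at 1 and MAX-HA at 1, that of Eif4e, which encodes the cap-binding translation factor. The shares over all genes were 29.6% for TEAD1-HA, 43.8% for BHLHB8-HA, 11.7% for DLX1-HA, 10.5% for RHOX11-HA, 5.38% for EBF1-HA and 1.86% for MAX-HA. In genes with the GC content of the 10 network genes they were 43.5%, 57.1%, 15.6%, 13.8%, 7.68% and 2.24%. BHLHB8-HA at 4 of 7 (57.1%) was thus at its GC-matched share, and TEAD1-HA at 9 of 26 was below its own. The other counts of these 2 constructs lay above both shares. The GC content of the 3 lists was not compared.

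**Figure D4:**
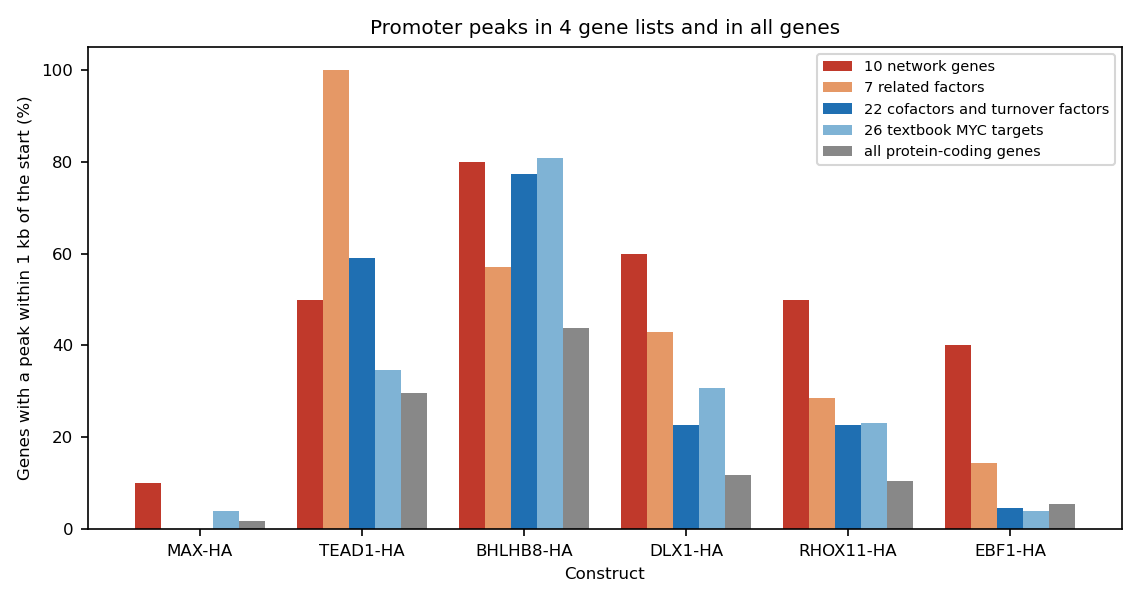
Share of genes with a promoter peak (y axis, %) for 6 constructs (x axis), with 1 bar per gene list and a grey bar for all protein-coding genes. MAX-HA stays at 10% or below in each list, and TEAD1-HA reaches 100% in the 7 related factors and 50% in the 10 network genes.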

How the data were processed

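NIH-3T3 cells expressing HA-tagged factors were profiled by anti-HA ChIP-seq. The authors aligned paired-end reads to mm10 with STAR 2.5.3a, removed duplicates with Picard, called peaks per sample with MACS2 2.1.1.20160309 and discarded those overlapping input peaks or the ENCODE blacklist. Each deposited file holds peak coordinates only, so peak heights and read depth are unknown. Input chromatin was not used here. Groups and replicate numbers came from the labels.

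Peaks were overlapped (at least 1 bp) with GENCODE vM21 genes using Python 3.11.15 and NumPy 2.4.6, and exact intervals used SciPy 1.17.1. Plots were drawn with Matplotlib 3.10.9. Duplicate lists were merged per construct to count genes and sites, but not to count peaks. Touching peaks were merged into sites. Coordinates count from 1. Overlap and motif counts were tested on simulated data. All 10 genes were named, with their most shared sites and all MAX-HA and TEAD1-HA promoter peaks. Further sites and neighbouring genes were named after their values were seen. The genes and lists were chosen with earlier results of these data known, so no p-values are given. Alternatives covered flanks, promoter widths, peak width, overlap, merging distance and single replicates.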

Additional observations from a re-analysis of the deposited data

How the results depend on the processing

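Of 134 values recomputed for 28 results, 91 stayed within their limit and 43 moved, where the limit was 1.5 times for a count and the 95% exact interval of the main value for a share. The flank decided the window counts. With 10 kb, MAX-HA had 1 peak at 1 gene, TEAD1-HA 8 peaks at 6 genes, FOXA1-HA reached 1 gene, BHLHB8-HA had 57 peaks and all lists 122, and the share at the start was 100% for MAX-HA, 62.5% for TEAD1-HA and 36.9% for all lists. With 100 kb, MAX-HA had 7 peaks at 5 genes, FOXA1-HA 9 peaks at 5 genes, BHLHB8-HA 248 peaks and all lists 552. In gene bodies alone, MAX-HA and FOXA1-HA each had 1 peak at 1 gene, TEAD1-HA 7 peaks at 5 genes, BHLHB8-HA 31 peaks and all lists 63. With peaks of at least 300 bp, MAX-HA and FOXA1-HA each had 1 peak at 1 gene, all lists had 185 peaks, and 100 sites remained, of which 1 had 5 or more constructs. In the central 200 bp CACGTG was in 0% of MAX-HA peaks and 4.14% of all. At a reciprocal overlap of 50%, BHLHB8-HA replicate 1 agreed in 49.2% and replicate 2 in 36.6%.

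Leaving out either replicate gave 61 to 82 BHLHB8-HA peaks, 1 to 2 FOXA1-HA peaks at 1 to 2 genes, and 230 peaks over all lists. MAX-HA kept 1 promoter, and TEAD1-HA 5 or, with peaks of at least 300 bp, 4, in every alternative run. Backgrounds matched on GC content or window length, and nearest starts only (MAX-HA at 1 gene), were chosen after seeing the data, and gave MAX-HA 2.24% of promoters and 21.8% of windows and TEAD1-HA 43.5% of promoters. No paired analysis was possible because the lists hold positions only and no result comes from a test. Unknown depth limits every statement that a peak was not listed.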
